A study of Mus musculus with 12 samples.

Results

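The proteasome genes were taken from the deposited expression table as all protein-coding genes whose symbol starts with Psma, Psmb, Psmc, Psmd, Psme or Psmf and a number, without the inducible Psmb8, Psmb9 and Psmb10, provided that 3 or more libraries held a value of at least 10. The name pattern took 42 of the 22915 genes in the table, and 41 met the limit on values. Psme2b, with values of 2 to 6 in every library, did not meet it. One of the 41, Psmc3ip, fits the pattern by its letters, but encodes a protein of meiotic recombination and no part of the proteasome. It was kept as the rule takes it and is described apart, so that 40 genes of the proteasome remain.

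RNA was sequenced from cultured primary cardiomyocytes of adult male C57/Bl6 mice at 12 weeks of age, which were kept for 24 h in normoxia and, by the study's methods, in serum-free medium. There were 4 conditions with 3 libraries each, 12 in all: PBS, the solvent of the proteins, and the recombinant cytokines mLIF (mouse leukemia inhibitory factor), mOSM (mouse oncostatin M) and hlOSM (a human-like oncostatin M), each at 25 ng/mL by the sample labels and at a lower concentration by the study's methods. In mouse cells mLIF signals through its own receptor, LIFR, and mOSM through OSMR, whereas hlOSM carries a human loop that lets it use both. Neither the number of hearts behind a library is stated nor whether equally numbered libraries share cells, so that p-values measure only the spread between these samples.

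The proteasome degrades proteins that carry ubiquitin. Its core is a barrel of outer alpha rings and inner beta rings, in which Psmb5, Psmb6 and Psmb7 hold the active sites, and its regulatory particle of ATPases and non-ATPase subunits recognizes, unfolds and feeds in the substrate. Other caps and inhibitors can take the place of that particle, and dedicated chaperones assemble the parts. In heart muscle the system is known for the turnover of sarcomere proteins, and its genes are known to respond together when proteasome activity is blocked, through the transcription factor NFE2L1.

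Library totals lay between 2745748 and 2911891 normalized counts. These are not numbers of reads, and the study's methods give only an average depth, so that the depth behind a value is unknown. Replicate 3 had the highest total in each condition. Of the spread of all genes within conditions, 1.7% (sum of squares, log2 scale) lay between the replicate numbers, where 25% is the share for unrelated numbers, and whether an effect of the number was removed before deposit is not given in the sources used here. If it was, the SEs, intervals and p-values given here are too small, since the model counts 8 residual degrees of freedom and not the 6 that remain when the number enters as a block, and calls lost in that blocked fit are named beside the gene. The 40 proteasome genes together held between 0.472% and 0.519% of a library's total. Marker genes of 5 cell types were summed for each library, and none of the markers was at 0 in any library. The sum of 8 cardiomyocyte markers lay at 47572 to 49402 (PBS), 41237 to 43056 (mLIF), 33380 to 37353 (mOSM) and 34186 to 36611 (hlOSM), and 6, 7 and 7 of the 8 markers were lowered with mLIF, mOSM and hlOSM. Most of each of these sums is Ttn, with means of 32924 (PBS), 28727 (mLIF), 22907 (mOSM) and 23564 (hlOSM). The sum of 6 endothelial markers lay at 1076 to 1142 in PBS, 1321 to 1537 with mOSM and 1331 to 1416 with hlOSM (4 of 6 raised with each), and at 1090 to 1143 with mLIF (1 lowered). The sum of 6 smooth muscle and pericyte markers lay at 757 to 923 in PBS, 737 to 751 with mLIF, 585 to 653 with mOSM and 535 to 549 with hlOSM (0, 4 and 5 lowered). Fibroblast markers summed to 1982 to 2216, 1847 to 1981, 2202 to 2597 and 2079 to 2320 in the same order of conditions (0, 2 and 3 of 6 raised and 1, 2 and 3 lowered), and leukocyte markers to 303 to 326, 284 to 316, 345 to 382 and 320 to 390 (1 of 6 raised in each, and 0, 1 and 1 lowered). In such bulk samples, fewer cells of a type and less RNA per cell cannot be told apart, and the part of these shifts in the values of the proteasome genes was not tested.

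Each cytokine was set against PBS, which addresses what signaling through LIFR, OSMR or both does to these genes. With mLIF, 3 of the 41 genes passed an adjusted p under 0.05 (limma with Benjamini-Hochberg adjustment over 13184 genes), where 9.91% of all genes tested did so. Of the 3, 2 were raised and 1 lowered, beside 5.47% and 4.44% of all genes. With mOSM, 5 passed where 31.2% of all genes did, 3 raised (15.4% of all genes) and 2 lowered (15.8%). With hlOSM, 7 passed where 37.9% of all genes did, 5 raised (18.2% of all genes) and 2 lowered (19.8%). The share of the 41 genes that passed was thus 7.32% for mLIF, 12.2% for mOSM and 17.1% for hlOSM. The comparisons share the PBS libraries, so that the 3 counts are not independent of each other. In the blocked fit, 1, 2 and 3 genes were raised and 1, 2 and 2 lowered in the same order, where 5.95%, 25.3% and 31.2% of all genes passed.

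Most of the proteasome genes stayed close to their PBS level. The median log2 fold change of the 41 genes against PBS was 0.02 (mLIF), 0.01 (mOSM) and 0.00 (hlOSM), and that of all genes tested lay within 0.01 of 0. In each of the 3 comparisons, 85.4% of the 41 genes lay within 0.25 of 0 on the log2 scale, beside 72.9%, 60.1% and 55.7% of all genes. The 95% interval of a gene extended by 0.15 (median, range 0.11 to 0.63) to either side of its log2 fold change. It lay wholly within 0.5 of 0 in 36, 37 and 36 of the 41 genes, which is 87.8%, 90.2% and 87.8%, against 63.5%, 55% and 52.1% of all genes tested. These intervals bound the size of a change in most of these genes only if no effect of the replicate number was removed before deposit. Otherwise they are too small, and the intervals of the blocked fit were not counted. A missed threshold alone sets no such bound. Of the 41 genes, 39 reached 50 in 3 or more libraries, as did 9086 of the 13184 genes tested. The part of this difference in level in the shares of the 41 genes, here and below, was not tested. The summed normalized count of the 40 proteasome genes was 14369 ± 237 (SD, n = 3) in PBS, 14143 ± 382 (mLIF), 13868 ± 878 (mOSM) and 13880 ± 202 (hlOSM).

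**Figure D1:**
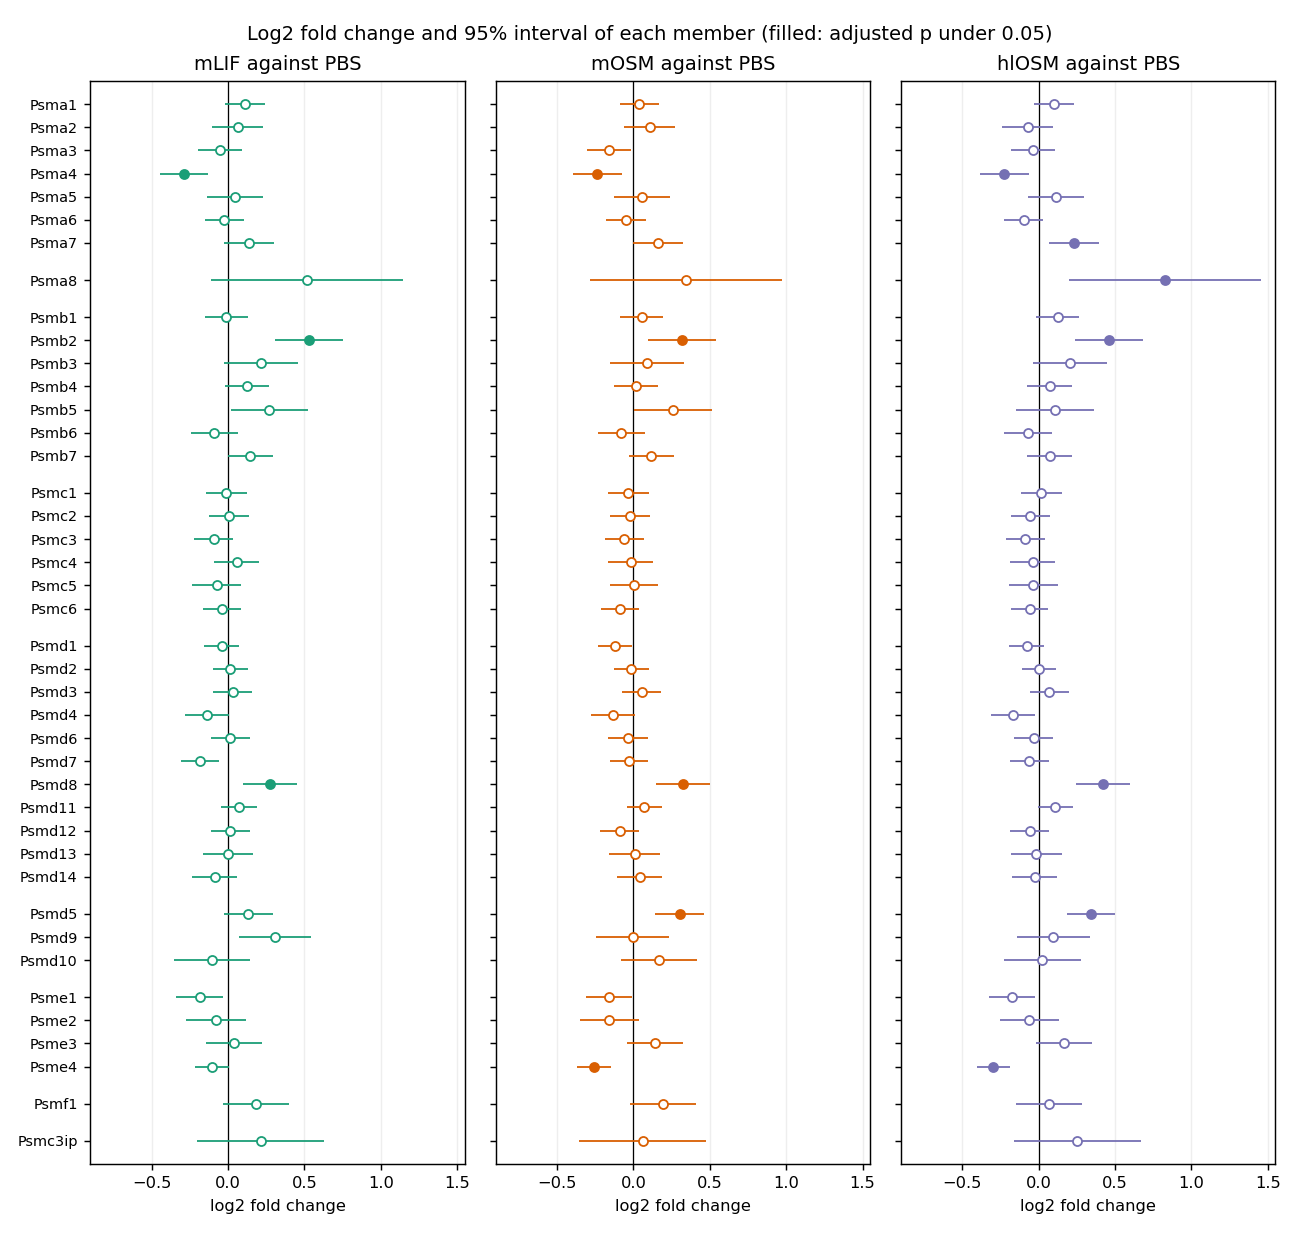
Log2 fold change of each of the 41 genes against PBS (x axis; points) with its 95% interval (lines) for mLIF, mOSM and hlOSM, each from 3 libraries against 3, in order of alpha ring, testis alpha form, beta ring, ATPases, non-ATPase subunits, base assembly chaperones, activators, inhibitor and Psmc3ip. Filled points passed an adjusted p under 0.05, which were 3 genes with mLIF, 5 with mOSM and 7 with hlOSM.

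**Figure D2:**
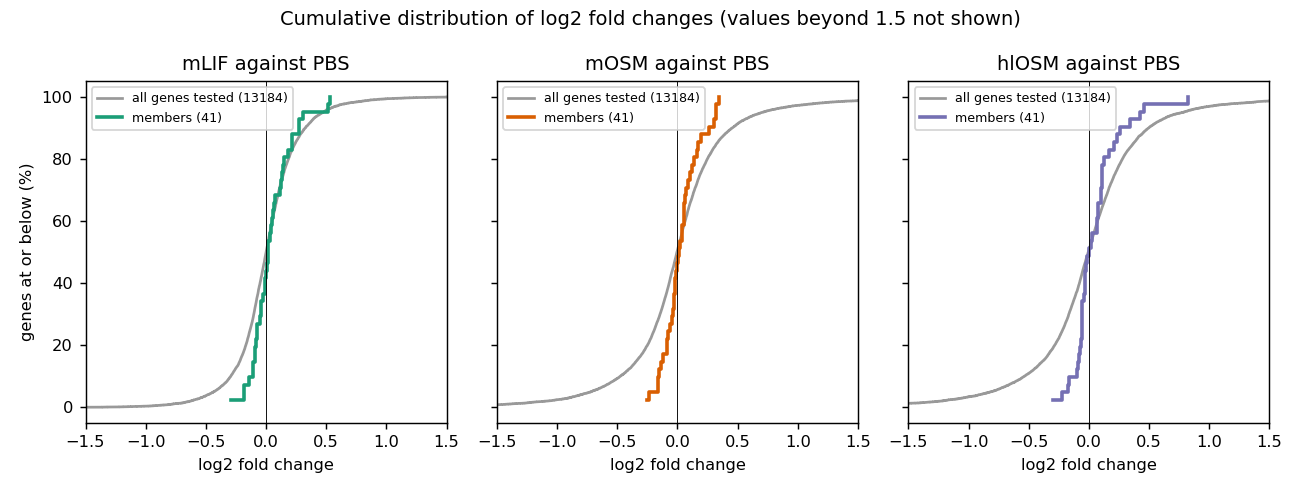
Share of genes (y axis, %) at or below a log2 fold change against PBS (x axis, values beyond 1.5 not shown) for the 41 genes (colored) and all 13184 genes tested (grey). The colored curve is the steeper with mOSM and hlOSM, where 85.4% of the 41 genes and 60.1% and 55.7% of all genes lay within 0.25 of 0. The sets were not matched for level.

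Promoter sequences of RefSeq (GRCm38.p6) were found for 34 of the 41 genes. They are shown for 4 genes that passed a test in more than 1 comparison, the raised Psmd8 and Psmd5 and the lowered Psma4 and Psme4. They are also shown for the catalytic subunits Psmb5 and Psmb6, whose promoters hold the core of the antioxidant response element, the DNA motif bound by NFE2L1 and NFE2L2. None was found for Psmb2, which also passed in more than 1 comparison, or for the catalytic Psmb7. Each line gives the 250 bases before the transcript start of RefSeq, 5′ to 3′ on the strand of the gene, with motif matches in capitals. The windows are chr7:29180674-29180923 (minus strand) for Psmd8, chr2:34870963-34871212 (minus) for Psmd5, chr9:54950609-54950858 (plus) for Psma4, chr11:30771525-30771774 (plus) for Psme4, chr14:54617996-54618245 (minus) for Psmb5 and chr11:70525107-70525356 (plus) for Psmb6.
Psmd8: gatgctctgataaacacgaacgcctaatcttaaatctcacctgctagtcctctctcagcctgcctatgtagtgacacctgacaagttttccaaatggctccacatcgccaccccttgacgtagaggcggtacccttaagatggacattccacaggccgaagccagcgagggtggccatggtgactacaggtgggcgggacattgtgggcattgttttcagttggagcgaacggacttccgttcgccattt
Psmd5: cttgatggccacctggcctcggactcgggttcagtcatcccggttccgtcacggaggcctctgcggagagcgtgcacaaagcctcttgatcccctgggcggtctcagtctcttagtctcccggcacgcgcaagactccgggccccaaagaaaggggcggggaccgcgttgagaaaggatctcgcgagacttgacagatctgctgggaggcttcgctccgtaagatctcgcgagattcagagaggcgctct
Psma4: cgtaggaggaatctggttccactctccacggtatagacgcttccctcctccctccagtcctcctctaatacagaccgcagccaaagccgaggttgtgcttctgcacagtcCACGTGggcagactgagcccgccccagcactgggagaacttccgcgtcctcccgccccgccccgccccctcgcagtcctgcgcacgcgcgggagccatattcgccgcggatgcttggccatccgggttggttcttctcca
Psme4: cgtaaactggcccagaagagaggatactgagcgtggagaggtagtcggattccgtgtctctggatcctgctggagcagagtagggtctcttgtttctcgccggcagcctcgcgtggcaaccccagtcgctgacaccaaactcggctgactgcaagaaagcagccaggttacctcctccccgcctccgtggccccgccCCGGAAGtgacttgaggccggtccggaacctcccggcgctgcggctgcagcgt
Psmb5: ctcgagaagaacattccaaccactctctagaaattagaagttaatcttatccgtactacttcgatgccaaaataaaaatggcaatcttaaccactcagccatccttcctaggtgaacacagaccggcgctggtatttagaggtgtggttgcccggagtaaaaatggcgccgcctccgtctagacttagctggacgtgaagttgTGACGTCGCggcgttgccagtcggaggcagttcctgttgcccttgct
Psmb6: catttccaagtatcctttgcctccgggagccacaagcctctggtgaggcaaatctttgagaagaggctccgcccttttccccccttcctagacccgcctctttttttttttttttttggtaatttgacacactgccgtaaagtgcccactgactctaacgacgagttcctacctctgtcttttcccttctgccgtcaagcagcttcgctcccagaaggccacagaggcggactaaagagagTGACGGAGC
Capitals mark an E-box starting at -140 in Psma4, an ETS core at -53 in Psme4, and the antioxidant core at -47 in Psmb5 and at -9 in Psmb6, all on the strand of the gene and counted from the transcript start. The windows of Psmd8 and Psmd5 held none of the motifs searched, and that of Psmd5 lies inside the span that the table gives the gene. Searched on both strands of the 250 bases before to 50 after the start, the antioxidant core TGACNNNGC was found in 6 of the 37 promoters of these genes (16.22%, against 12.39% of all 32851 promoters and 14.39% of those of the coding genes tested). Besides those of Psmb5 and Psmb6, these were the promoters of Psmc6, Psmd12, Psmd9 and Psme4. Its stricter form TGACTCAGC was in none of the 37 and in 0.4536% of all. The ETS core CCGGAAG was in 14 promoters of 13 genes (37.84%, against 8.858% of all and 17.49% of those of coding genes tested). In the same order, the CCAAT box was in 35.14% (37.41% and 37.44%) and the E-box CACGTG in 8.108% (7.15% and 9.952%). The STAT site TTCNNNGAA was in 1 promoter, that of Psmd2 (2.703%, against 8.298% and 6.756%). A match is only a run of letters and says nothing on the binding of a factor in these cells.

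Within the beta rings, Psmb2 was the gene that passed, and it was raised by all 3 cytokines. Psmb2 (chromosome 4, 126677630 to 126709714, mm10) encodes a beta subunit without an active site of its own. Its normalized counts were 90, 84 and 75 in PBS, 125, 105 and 132 after mLIF, 93, 114 and 105 after mOSM and 108, 111 and 124 after hlOSM. Every library of a cytokine lay above every PBS library. With mLIF the change was 0.53 ± 0.11 (log2, SE; adjusted p = 0.00306, limma), or 1.45-fold. It was 0.32 with mOSM (adjusted p = 0.0259) and 0.46 with hlOSM (adjusted p = 0.00178). The call with mOSM was lost without PBS replicate 3, mOSM replicate 2 or mOSM replicate 3 (adjusted p = 0.122, 0.126 and 0.0571) and in the fit that takes replicate numbers as a block (adjusted p = 0.0551).

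None of the 3 catalytic subunits passed. Psmb5, which carries the chymotrypsin-like site and is the main target of bortezomib, had normalized counts of 55, 55 and 52 in PBS, 68, 63 and 65 after mLIF, 61, 72 and 62 after mOSM and 57, 51 and 68 after hlOSM. All mLIF and mOSM libraries lay above the PBS libraries, with log2 fold changes of 0.27 and 0.26 (adjusted p = 0.166 and 0.112), and hlOSM overlapped PBS (0.11, adjusted p = 0.519). Psmb6, the caspase-like subunit, had 274, 271 and 284 in PBS, 270, 253 and 256 after mLIF, 248, 244 and 296 after mOSM and 260, 282 and 249 after hlOSM. Psmb7, the trypsin-like subunit, had 221, 225 and 218 in PBS, 261, 222 and 254 after mLIF, 227, 244 and 250 after mOSM and 224, 238 and 237 after hlOSM. Neither moved by more than 0.15 in any of the 3 comparisons. Of the 7 beta genes, 1 was raised and none lowered in each comparison, and the others lay between -0.09 and 0.27.

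In the alpha rings, which gate the entry to the core, 7 genes were measured besides the testis form. Psma4 (chromosome 9, 54950790 to 54958030) was lowered by all 3 cytokines. Its normalized counts were 418, 402 and 422 in PBS, 348, 338 and 331 after mLIF, 331, 321 and 409 after mOSM and 351, 381 and 332 after hlOSM. All mLIF and hlOSM libraries lay below PBS, while mOSM replicate 3 fell among the PBS values. The log2 fold changes were -0.29, -0.23 and -0.22 (adjusted p = 0.0194, 0.0221 and 0.0242), with an SE of 0.08 each. Each call depended on several libraries. The mLIF call was lost without PBS replicate 3, mLIF replicate 2 or mLIF replicate 3 (adjusted p 0.0698, 0.057 and 0.0875), that of mOSM without PBS replicate 1, PBS replicate 3, mOSM replicate 1 or mOSM replicate 2 (0.0555, 0.065, 0.104 and 0.133), and that of hlOSM without PBS replicate 1, PBS replicate 3, hlOSM replicate 1 or hlOSM replicate 3 (0.0593, 0.0664, 0.0593 and 0.106).

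Psma7 (chromosome 2, 180036374 to 180042433) moved the other way. It had 130, 124 and 127 in PBS, 134, 133 and 153 after mLIF, 139, 146 and 141 after mOSM and 151, 149 and 148 after hlOSM. No library of a cytokine overlapped PBS, and the hlOSM libraries lay within 3 of each other. It was raised with hlOSM by 0.23 ± 0.08 (log2, SE; adjusted p = 0.0241, limma), while mLIF (0.14, adjusted p = 0.286) and mOSM (0.16, adjusted p = 0.131) did not pass. The hlOSM call was lost without PBS replicate 2, PBS replicate 3, hlOSM replicate 1 or hlOSM replicate 2 (adjusted p 0.0731, 0.0514, 0.0645 and 0.0538) and in the fit that takes replicate numbers as a block (0.0651). The other 5 alpha genes did not pass against PBS.

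Psma8, the alpha subunit of the testis proteasome, had the lowest level per length of the 41 genes, with normalized counts of 7, 14 and 6 in PBS, 15, 10 and 13 after mLIF, 12, 11 and 10 after mOSM and 14, 12 and 23 after hlOSM. Its hlOSM libraries overlapped PBS, and a single one reached 23. It passed with hlOSM (log2 fold change 0.83 ± 0.30, SE; adjusted p = 0.0356, limma), but not without PBS replicate 1, PBS replicate 3 or hlOSM replicate 3 (adjusted p 0.11, 0.158 and 0.203), nor in the fit that takes replicate numbers as a block (0.0755). At such values the addition of 1 before the logarithm understates a change. Psmc3ip, the recombination protein, had 20, 21 and 17 in PBS, 21, 20 and 27 after mLIF, 17, 20 and 24 after mOSM and 27, 23 and 20 after hlOSM and did not pass.

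**Figure D3:**
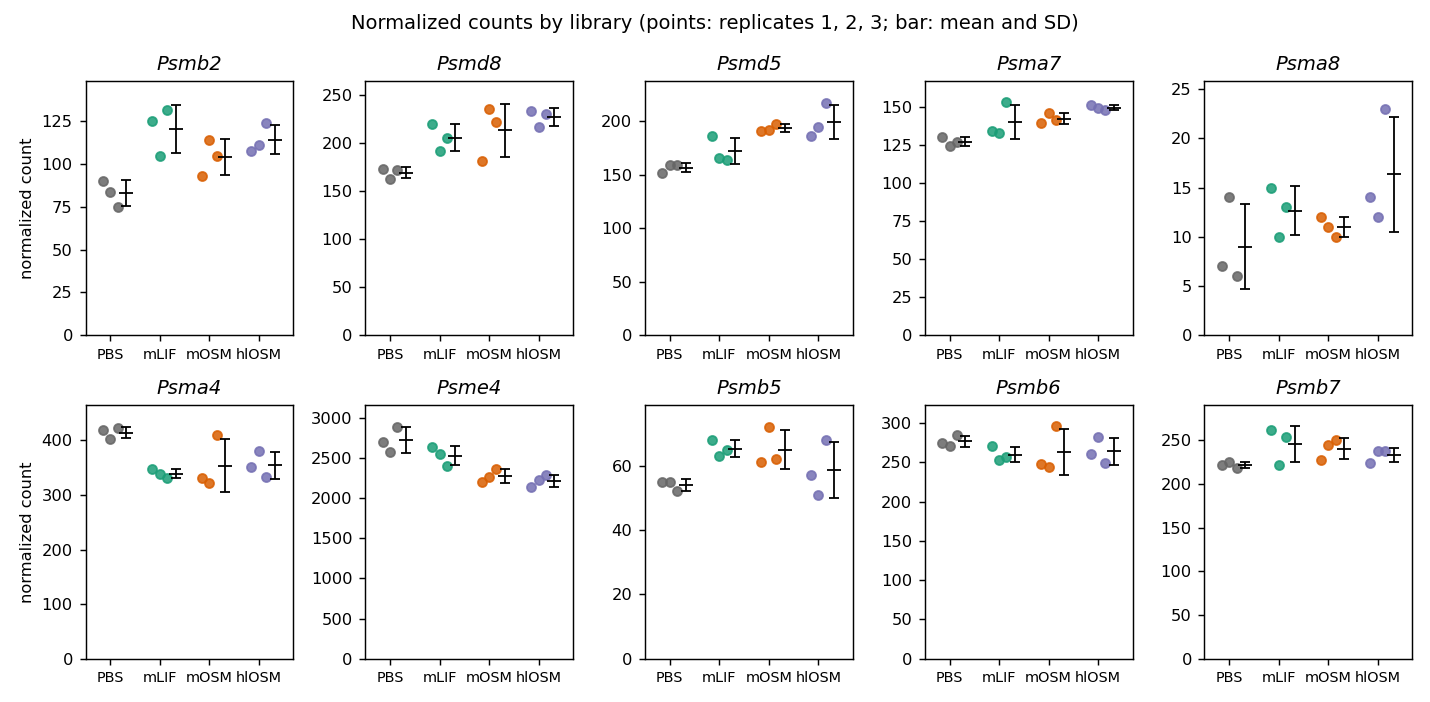
Normalized count (y axis, from 0, own scale for each gene) of 10 genes in each of the 12 libraries, with points for replicates 1, 2 and 3 of each condition and a bar for the mean and SD beside them. Psmb2, Psmd8, Psmd5 and Psma7 lie higher in every cytokine library than in PBS, and Psme4 lies lower in every mOSM and hlOSM library.

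The 6 ATPases, Psmc1 to Psmc6, form the ring that unfolds substrates. None passed in any comparison between conditions. Their log2 fold changes lay between -0.09 and 0.06 with mLIF, between -0.09 and 0.00 with mOSM and between -0.09 and 0.02 with hlOSM. Psmc3 had the smallest adjusted p of the 6 with hlOSM, with normalized counts of 356, 344 and 357 in PBS, 319, 333 and 338 after mLIF, 321, 334 and 361 after mOSM and 345, 325 and 325 after hlOSM (log2 fold change -0.09, 95% interval -0.21 to 0.04).

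Among the 11 non-ATPase subunits, Psmd8 alone was raised. Psmd8 (chromosome 7, 29174188 to 29180701) encodes a subunit of the lid, the part that holds the deubiquitinase Psmd14. Its normalized counts were 173, 163 and 172 in PBS, 220, 192 and 205 after mLIF, 182, 236 and 222 after mOSM and 234, 217 and 231 after hlOSM. No cytokine library overlapped PBS. Against PBS it rose by 0.28 (mLIF), 0.32 (mOSM) and 0.42 (hlOSM) in log2 units (SE 0.09 each; adjusted p = 0.0413, 0.00565 and 0.000454, limma), the last being 1.34-fold. The mLIF call was lost without PBS replicate 1, 2 or 3 or mLIF replicate 1 or 3 (adjusted p 0.0626, 0.119, 0.0855, 0.165 and 0.117) and in the fit that takes replicate numbers as a block (0.0844).

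The other 10 non-ATPase genes did not pass against PBS. Psmd11, a scaffold subunit of the lid, had 876, 826 and 797 in PBS, 890, 845 and 890 after mLIF, 825, 881 and 924 after mOSM and 861, 889 and 948 after hlOSM. Psmd1, the large subunit of the base that binds the deubiquitinase Uchl5 through Adrm1, had 763, 793 and 804 in PBS, 783, 769 and 740 after mLIF, 717, 684 and 775 after mOSM and 732, 741 and 762 after hlOSM. Both held the highest normalized counts after Psme4, which are not divided by length, and their log2 fold changes lay between -0.12 and 0.11. The ubiquitin receptor Psmd4 was lower in all mLIF and hlOSM libraries than in PBS, at means of 480 and 471 against 528, with adjusted p of 0.219 and 0.0662. The deubiquitinase Psmd14 lay within 0.09 of 0 on the log2 scale in all 3 comparisons.

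Psmd5, Psmd9 and Psmd10 carry names of subunits, but are chaperones that hold ATPases of the base during assembly and leave the finished particle. Psmd5 (chromosome 2, 34849734 to 34874968) had normalized counts of 152, 159 and 159 in PBS, 186, 166 and 164 after mLIF, 191, 192 and 198 after mOSM and 186, 195 and 217 after hlOSM. All cytokine libraries lay above PBS. It was raised with mOSM (0.30 ± 0.08, log2, SE; adjusted p = 0.00406, limma) and with hlOSM (0.34 ± 0.08; adjusted p = 0.00121), and did not pass with mLIF (0.13, 95% interval -0.03 to 0.29, adjusted p = 0.29). Psmd9 had 80, 81 and 97 in PBS, 105, 96 and 119 after mLIF, 91, 95 and 72 after mOSM and 90, 92 and 93 after hlOSM. Its log2 fold change with mLIF was 0.31 (adjusted p = 0.0919), and 25.5% of its exonic length lies opposite exons of Gm26745. Smaller stretches of Psmc3ip (21.2%), Psmb7 (11.8%), Psmd13 (10.1%), Psmc3 (8.25%) and Psma4 (4.81%), among others, lie opposite exons of other genes. The sources used here do not state whether the counting used strand. On the same strand, 12.1% of the exonic length of Psmb5 is shared with Mir686 and 4.14% of that of Psmd1 with Gm21972. By the study's methods, a read on more than a single gene was not counted. Psmd10, also known as gankyrin, lay at means of 69.3, 64.3, 78.7 and 70.7 and did not pass.

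Psme4, also named PA200, encodes a large single-chain cap of the core that is known to act on acetylated histones. It had the highest level per length of the 41 genes and was lowered with both oncostatins. Psme4 (chromosome 11, 30771726 to 30880361) had 2702, 2574 and 2889 in PBS, 2631, 2548 and 2402 after mLIF, 2202, 2258 and 2366 after mOSM and 2134, 2228 and 2283 after hlOSM. The mOSM and hlOSM libraries all lay below the lowest PBS library and below the lowest mLIF library, while mLIF overlapped PBS. The log2 fold change was -0.26 ± 0.05 with mOSM (SE; adjusted p = 0.000703, limma) and -0.30 ± 0.05 with hlOSM (adjusted p = 0.000127), which is 0.837 and 0.815 of the PBS level. With mLIF it was -0.11 (95% interval -0.22 to 0.00, adjusted p = 0.211). Of 8 cardiomyocyte markers, 6, 7 and 7 were lowered with mLIF, mOSM and hlOSM, beside 4.44%, 15.8% and 19.8% of all genes. Of 6 smooth muscle and pericyte markers, 0, 4 and 5 were lowered. The part of these shifts in the result for Psme4 was not tested.

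The other activators did not pass. Psme1 and Psme2, the interferon-inducible caps that form the PA28 alpha-beta ring, lie 5911 bases apart on chromosome 14. Psme1 had 391, 371 and 393 in PBS, 352, 347 and 317 after mLIF, 318, 324 and 396 after mOSM and 337, 350 and 336 after hlOSM. All mLIF and hlOSM libraries lay below PBS and mOSM replicate 3 did not, with log2 fold changes of -0.19, -0.16 and -0.17 (adjusted p = 0.111, 0.102 and 0.0656). Psme2 lay at means of 128, 121, 114 and 122, and Psme3, the nuclear PA28 gamma, at 312, 320, 343 and 351. Psmf1, the inhibitor PI31, had 93, 99 and 88 in PBS, 107, 110 and 101 after mLIF, 98, 108 and 115 after mOSM and 102, 84 and 109 after hlOSM. Its mLIF libraries lay above PBS (log2 fold change 0.18, adjusted p = 0.277).

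Groups whose libraries did not overlap were counted as well. With mLIF, 14 of the 41 genes had all 3 libraries above or below all PBS libraries, where 30.3% of all genes tested did so, 8 of them higher (14.7% of all genes) and 6 lower (15.6%). There were 8 such genes with mOSM, beside 40.1% of all genes, 6 of them higher (20.2% of all genes) and 2 lower (19.9%). With hlOSM there were 12, beside 47% of all genes, 5 of them higher (22.7%) and 7 lower (24.3%). The shares of the 41 genes were thus 34.1%, 19.5% and 29.3%.

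The cytokines were then compared with each other, which sets OSMR against LIFR (mOSM and mLIF) and both receptors against either alone (hlOSM). With hlOSM the protein changes as well, so that an added receptor and another ligand cannot be told apart. Between mOSM and mLIF, 0 of the 41 genes passed (limma), where 11.8% of all genes passed. Psme4 had the smallest adjusted p, with a log2 fold change of -0.15 (adjusted p = 0.0694). Between hlOSM and mLIF, Psme4 alone passed and was lower with hlOSM, with a log2 fold change of -0.19 ± 0.05 (SE; adjusted p = 0.0155), where 16.6% of all genes passed. This call was lost without mLIF replicate 1, mLIF replicate 2 or hlOSM replicate 1 (adjusted p 0.0915, 0.0669 and 0.0742).

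Between hlOSM and mOSM, 0 of the 41 genes passed (limma), where 0.106% of all genes passed. The libraries did not overlap in Psma7, which was higher with hlOSM, and in Psma2, which was lower, beside 9.74% of all genes tested without overlap. In 39 of the 41 genes (95.1%) the 95% interval of the difference lay within 0.5 of 0 on the log2 scale, against 70.8% of all genes. The interaction sets hlOSM minus mOSM against mLIF minus PBS. It can stand for LIFR with and without OSMR signaling only if hlOSM acts on each receptor as mOSM and mLIF do. That was not measured in these libraries, and no condition held mLIF and mOSM together. The interaction passed in 0 of the 41 genes, where 0.167% of all genes passed. The smallest unadjusted p belonged to Psma4 and Psmb2, which had the lowest and the highest log2 fold change of the 41 genes with mLIF and an interaction of 0.30 and -0.39 on the log2 scale (adjusted p = 0.275 and 0.312).

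Most of the proteasome genes shared the order of the mOSM libraries. In mOSM replicate 1, 32 of the 41 genes had their lowest of the 3 mOSM values, and in mOSM replicate 3, 32 had their highest. Over all genes tested, 30.5% had their lowest mOSM value in replicate 1 and 43.3% their highest in replicate 3. In mLIF, 25 of the 41 were highest in replicate 1, against 28% of all genes. The mean log2 deviation of the proteasome genes from their own average was -0.09, 0.00 and 0.08 in the 3 mOSM libraries, -0.03 in each PBS library, 0.06, -0.03 and 0.01 in the mLIF libraries and 0.01, -0.01 and 0.05 with hlOSM. The mOSM libraries were thus farther apart from each other than the means of the 4 conditions. Without mOSM replicate 3, 7 genes instead of 2 were lowered with mOSM, and the part of the spread in this was not tested.

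Across the 12 libraries, the log2 value of a gene correlated with the mean of the other proteasome genes by between -0.20 and 0.85 (Pearson, median 0.42, n = 12 libraries that share conditions and scaling), with 16 above 0.5 and 4 below 0. The ATPase Psmc1 (0.85), Psmd11 (0.77), Psmd2 (0.77) and Psmd6 (0.76) followed the mean most closely. The 4 below 0 were Psme2 (-0.20), Psme4 (-0.17), Psmd9 (-0.16) and Psma4 (-0.09). Of the raised genes, Psmd8 correlated by 0.63, Psmb2 by 0.50 and Psmd5 by 0.41.

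Levels between genes were compared per kilobase of exon, as the mean normalized count over the 12 libraries. Psme4 was first with 290, followed by the alpha subunit Psma6 with 279 and Psmd2, a large base subunit, with 181. The medians of the roles were 144 for the ATPases, 136 for the non-ATPase subunits, 136 for the activators, 108 for the alpha genes and 68.7 for the beta genes, and they overlapped widely, with 64.9 to 177 in the ATPases and 35 to 142 in the beta genes. The assembly chaperones were lower, with 48.2 for Psmd10, 25 for Psmd5 and 12.8 for Psmd9, as was the inhibitor Psmf1 with 15.7. Psma8 was last with 4.91. The exon lengths are those of all annotated transcripts together, so that a gene with long rare transcripts comes out too low.

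**Figure D4:**
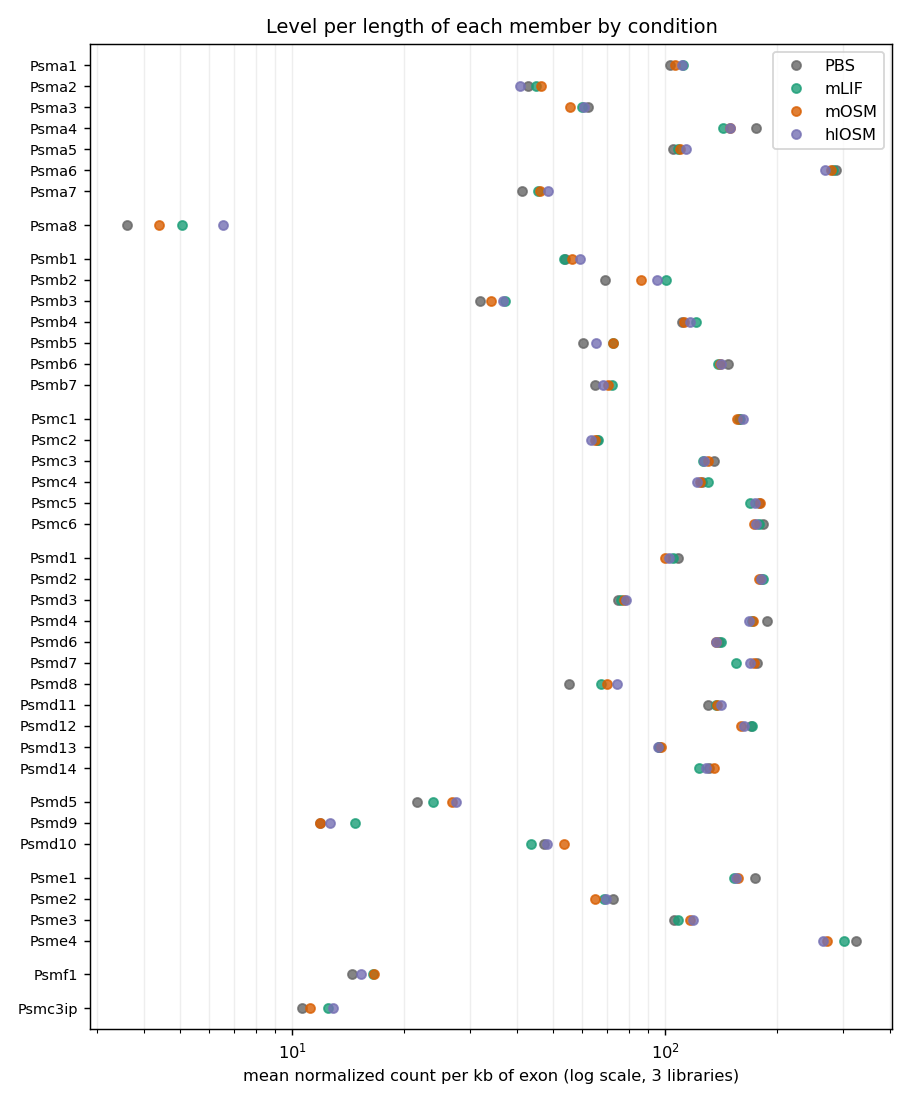
Mean normalized count per kilobase of exon (x axis, log scale) of each of the 41 genes in the 4 conditions, each point the mean of 3 libraries. The points of a gene lie close to each other beside the distance between genes, which runs from Psma8 with 4.91 to Psme4 with 290 over all libraries.

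A pair of other large complexes served as a measure of scale. Of 78 cytosolic ribosomal protein genes, 2, 9 and 20 passed with mLIF, mOSM and hlOSM (2.56%, 11.5% and 25.6%), and their median log2 fold changes were 0.03, 0.09 and 0.14, where those of the 41 genes were 0.02, 0.01 and 0.00. With hlOSM, 65 of the 78 ribosomal genes and 21 of the 41 proteasome genes lay above 0. Of the 8 genes of the chaperonin TRiC, 1, 2 and 2 were raised and none lowered, beside 5.47%, 15.4% and 18.2% of all genes raised and 4.44%, 15.8% and 19.8% lowered, with medians of 0.02, 0.05 and 0.09. The differences between the lists were not tested.

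Genes that work with the proteasome outside the name pattern were read from lists written with earlier results of these data known. Their counts stand beside the shares of all genes just given, and with lists of 2 to 8 genes nothing is read from a difference. Of the inducible catalytic subunits of the immunoproteasome, Psmb9 had values of 0 to 6 and was not tested, and Psmb8 lay at 8 to 20 and did not pass. Psmb10 had 98, 80 and 100 in PBS, 82, 87 and 96 after mLIF, 79, 70 and 76 after mOSM and 64, 84 and 64 after hlOSM, and was lowered with hlOSM (log2 fold change -0.39, adjusted p = 0.0138, limma). Its hlOSM libraries overlapped PBS, and the call was lost without PBS replicate 1 or 3 or hlOSM replicate 1 or 3 (adjusted p 0.0545, 0.063, 0.0666 and 0.0654).

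Of the 5 assembly chaperones of the core that were tested, 1 was raised by mLIF and 2 by each oncostatin, and none was lowered, where 5.47%, 15.4% and 18.2% of all genes were raised. Psmg4, which helps to build the alpha ring, had 20 in each of the 3 PBS libraries, 30, 34 and 33 after mLIF, 30, 26 and 34 after mOSM and 32, 34 and 30 after hlOSM. It passed in all 3 comparisons (log2 fold changes 0.66, 0.55 and 0.65; adjusted p = 0.0112, 0.011 and 0.00281, limma). Its partner Psmg3 was raised with mOSM and hlOSM (0.61 and 0.61; adjusted p = 0.0481 and 0.0402), at values of 13 to 29. In the blocked fit the calls of Psmg4 with mLIF (adjusted p = 0.0501) and of Psmg3 (0.107 and 0.0906) were lost. That of Psmg4 with mLIF was also lost without mLIF replicate 3 (0.0524), and Psmg3 passed in 4 (mOSM) and 7 (hlOSM) of the 12 fits without a library, with all 3 PBS libraries among those it needed. Pomp, which completes the beta ring, stayed within 0.03 of 0 in the 3 comparisons.

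Of 8 regulators of proteasome genes and their processing factors that were tested, 0 were raised and 1 lowered with mLIF, 1 raised and 1 lowered with mOSM, and 2 raised and 1 lowered with hlOSM, where 18.2% and 19.8% of all genes were raised and lowered with hlOSM, 15.4% and 15.8% with mOSM and 5.47% and 4.44% with mLIF. The lowered gene was Nfe2l1 each time. Its normalized counts were 1664, 1623 and 1580 in PBS, 1498, 1390 and 1428 after mLIF, 1310, 1391 and 1523 after mOSM and 1308, 1345 and 1396 after hlOSM, without overlap with PBS (log2 fold changes -0.17, -0.21 and -0.27; adjusted p = 0.0475, 0.00596 and 0.000579, limma). The mLIF call was lost in the blocked fit (0.0818) and without any one of the PBS or mLIF libraries or hlOSM replicate 2 (0.0546 to 0.167), while both oncostatin calls held in all 12 fits without a library. Nfe2l2, the NRF2 of the antioxidant response, was raised with mOSM and hlOSM (0.23 and 0.25; adjusted p = 0.0106 and 0.00574), from a mean of 431 to 506 and 512. Akirin2, which brings proteasomes into the nucleus, was raised with hlOSM (0.23, adjusted p = 0.0129), and Ngly1, which activates NFE2L1 by removing its glycans, did not pass. Nfe2l2 with mOSM was lost without PBS replicate 3 or mOSM replicate 2 (0.0616 and 0.0513), and Akirin2 without PBS replicate 1 or hlOSM replicate 2 (0.0544 and 0.0538).

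Upstream of the proteasome, 4 genes for ubiquitin and its activating enzymes were tested. With mLIF 0 were raised and with each oncostatin 2, and none was lowered, where 5.47%, 15.4% and 18.2% of all genes were raised. The 2 were the activating enzymes Uba1 and Uba6, while the ubiquitin genes Ubb and Rps27a did not pass. Uba1 rose from 584 ± 27.1 (SD, n = 3) in PBS to 691 ± 32.1 with mOSM and 699 ± 30.4 with hlOSM (adjusted p = 0.00211 and 0.000941, limma), and Uba6 from 357 ± 17.8 to 416 ± 9.64 and 425 ± 26.1 (adjusted p = 0.00898 and 0.00283). Of 8 genes for shuttle receptors and the p97 segregase, which hand ubiquitylated proteins to the proteasome, none was raised, and Vcp (p97) was lowered with mOSM and hlOSM (log2 fold changes -0.18 and -0.15; adjusted p = 0.0157 and 0.0324, limma). The hlOSM call of Vcp was lost in the blocked fit (0.0645) and without PBS replicate 1 or 3 or hlOSM replicate 1 or 2, and its mOSM call without PBS replicate 1 or 3 or mOSM replicate 1 or 2 (0.0505 to 0.0972 over these fits). Of 7 proteins of the base and lid or associated with the particle, Ube3c, a ubiquitin ligase, was raised with hlOSM (0.15, adjusted p = 0.0492, limma). It did not pass in the blocked fit (0.0816) and passed in 3 of the 12 fits without a library. The others, Usp14, Uchl5, Adrm1, Sem1, Ecpas and Txnl1, did not pass.

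**Figure D5:**
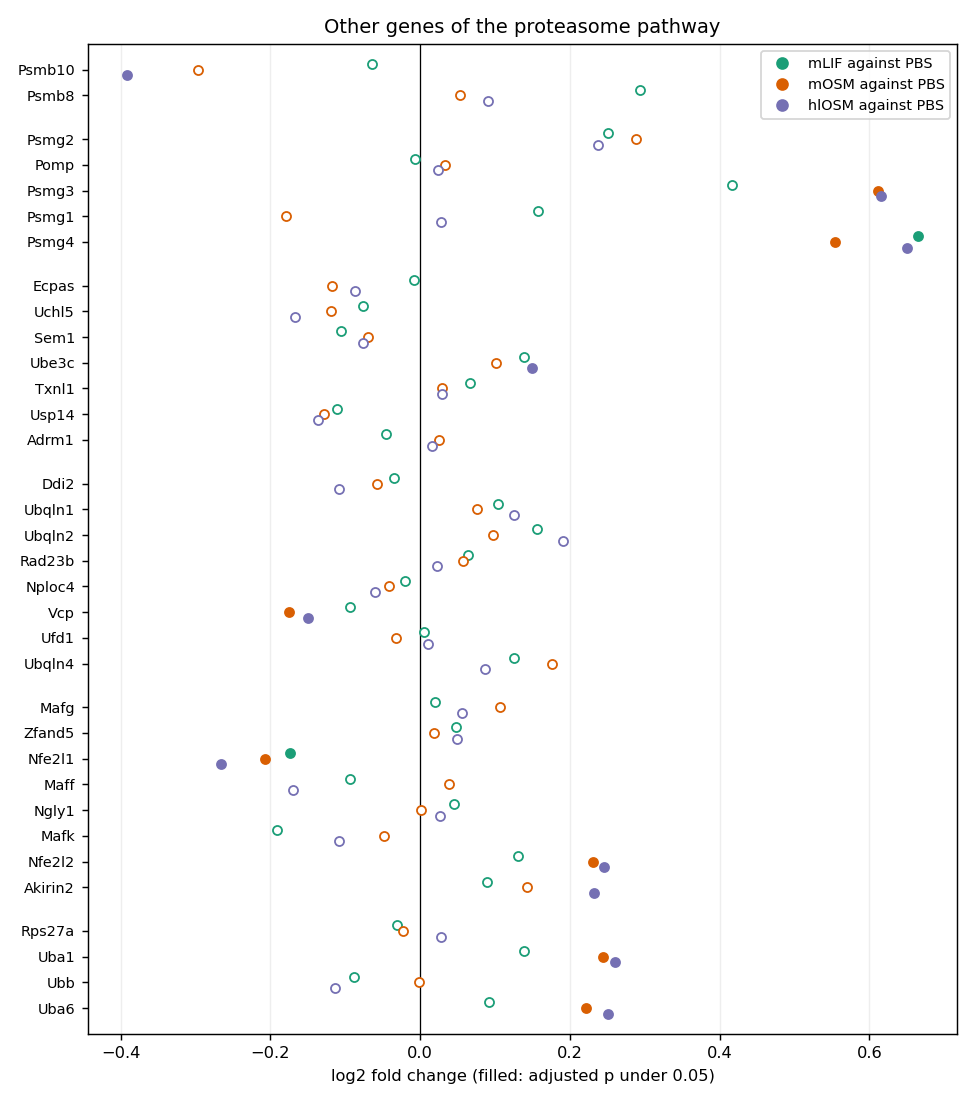
Log2 fold change against PBS (x axis) with mLIF, mOSM and hlOSM of the genes tested around the proteasome (points, 3 libraries against 3). Points are filled where the adjusted p was under 0.05. First come inducible catalytic subunits, assembly chaperones, and proteins of the base and lid or associated with the particle. Shuttle receptors and p97, regulators, and ubiquitin with its activating enzymes follow. Psmg4 is filled to the right of 0 and Nfe2l1 to the left of 0 in all 3 comparisons.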

How the data were processed

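Conditions and replicate numbers came from the titles of the samples. Per the labels and the study's methods, the authors aligned trimmed reads to mm10 (STAR 2.7.7a) and counted reads on the exons of single genes (featureCounts 1.6.5). Reads with several alignments were left out, so that genes with near-identical pseudogenes may lose reads. The deposited values are scores, namely normalized counts rounded to whole numbers, and the normalization is not given in the sources used here. No count model was used, since reads and depth cannot be read from such values.

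The genes and lists described here were chosen with earlier results of these data known. All 12 libraries entered 1 linear model in limma 3.58.1 (R 4.3.3; empirical Bayes with a mean-variance trend) on log2(value + 1). It covered the 13184 genes that reached 10 in 3 or more libraries. It was also run on simulated data with errors independent between libraries. Those lack the structure tied to the replicate numbers, so that they cannot give the rate of false calls in these data. Tests were two-sided, with Benjamini-Hochberg adjustment over these genes and a threshold of 0.05. Library values are given for the catalytic subunits, for the gene of each role with the smallest adjusted p with hlOSM and with mLIF, for genes past the threshold between cytokines or against the main direction, and for the 3 genes with the highest and the lowest values. Examples from the lists are those with the smallest adjusted p with hlOSM, while Pomp and Ngly1 were named after their values were seen. Some genes of these lists are not reported here. Coordinates are those of the table. Alternatives were other pseudocounts, filters, scalings, variance models and sample sets, a replicate block, and each library left out in turn.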

Additional observations from a re-analysis of the deposited data

How the results depend on the processing

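With each library left out in turn, the count of raised proteasome genes lay between 1 and 2 (mLIF), 2 and 3 (mOSM) and 3 and 5 (hlOSM), and that of lowered genes between 0 and 3, 1 and 7, and 1 and 4. Between mOSM and mLIF it lay between 0 and 2, between hlOSM and mLIF between 0 and 1, and it was 0 each time between hlOSM and mOSM and in the interaction. Against PBS the median log2 fold change of the 41 genes ranged from -0.0154 to 0.0315 (mLIF; 0.0152 with all libraries), from -0.0463 to 0.0646 (mOSM; 0.00877) and from -0.00466 to 0.0203 (hlOSM; 0.003), so that its sign is not settled. It ranged from -0.0704 to 0.0379 for mOSM against mLIF (-0.0105), from -0.0225 to 0.0255 for hlOSM against mLIF (0.0071 with all libraries) and from -0.0291 to 0.0675 for hlOSM against mOSM (0.015). In these fits a group is left with 2 libraries, and the cause of the shifts was not tested.

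Without the mean-variance trend, 1 gene was raised and 0 were lowered with mLIF, 1 was lowered with mOSM and 1 with hlOSM, and 0 passed between hlOSM and mLIF. Psmb2 with mOSM and Psma8 with hlOSM were lost there too (adjusted p = 0.0544 and 0.0521, limma). Psma8 was also lost without a filter (0.0643) and with only the libraries compared (0.0645). Without a filter, 1 gene was raised with mLIF. With a filter at 50, which leaves out Psma8 and Psmc3ip, 2 were lowered with mLIF. With trimmed-mean scaling, 2 were lowered with mLIF, 1 passed between mOSM and mLIF and 2 between hlOSM and mLIF, and with quantile scaling 1 passed between mOSM and mLIF. With only the libraries compared, 3 were lowered with mLIF and 4 with hlOSM. The cause was not tested. The median of all genes tested stayed within 0.01 of 0 under each scaling. No called gene of the 41 changed direction under these settings, nor did the genes called against PBS in the lists around the proteasome. Ribosomal and TRiC genes were not followed.

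The deviations of same-numbered libraries from their group means correlated by -0.41 to -0.15 (median -0.32, below 0 in all 18 pairs). The values thus carry a structure tied to the numbers. Removal of an effect of the number would leave values below 0 for paired libraries too. These correlations therefore cannot tell whether libraries were paired. In the fit that takes replicate numbers as a block, 1 gene was raised with mLIF and 3 with hlOSM instead of 2 and 5, 2 instead of 3 were raised with mOSM, and the other counts did not change. Psmd5 and Psmd8 with both oncostatins, Psmb2 with mLIF and hlOSM, and Psme4 with both oncostatins against PBS passed under all 10 other settings and in all 12 fits without a library.

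The depth behind the values is unknown, which leaves the counting error of low genes such as Psma8 without a bound.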
